A study of Arabidopsis thaliana with 2 samples.

Results

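The 10 genes described here belong to the WUSCHEL and CLAVATA pathway of the shoot and floral meristem, and they were taken by their gene identifiers from the 36632 nuclear gene identifiers of an Arabidopsis thaliana single-nucleus RNA-seq data set. They are WUS (AT2G17950), CLV3 (AT2G27250), CLV1 (AT1G75820), CLV2 (AT1G65380), CRN (AT5G13290), BAM1 (AT5G65700), BAM2 (AT3G49670), RPK2 (AT3G02130), HAM1 (AT2G45160) and HAM2 (AT3G60630). The rule names gene identifiers and no level, and the genes were chosen with earlier results of these data known. The data are 2 libraries of DAPI-stained, sorted nuclei from inflorescences of Ler plants (Landsberg erecta, an ecotype) that carry pAP1:AP1-GR and the mutations ap1-1 and cal-1, 1 taken at day 3 (stage 4) and 1 at day 4 (stage 5) of induction with 2 µM dexamethasone. Both groups carry the same transgene, the same mutations and the same treatment, so there is no uninduced or wild-type sample. Without AP1 and CAL activity the inflorescence of these plants forms masses of meristems. The AP1-GR fusion is made under the AP1 promoter and enters nuclei once the hormone is given, so that many meristems begin to form flowers together.

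WUS is a homeodomain transcription factor made in the organizing centre below the stem cells. It moves into the stem cells and activates CLV3, which encodes a secreted peptide. CLV3 signals at the plasma membrane through the receptor kinase CLV1 and its relatives BAM1 and BAM2. The receptor-like protein CLV2 together with the pseudokinase CRN, and the receptor kinase RPK2, also take part, and this signalling restricts WUS. HAM1 and HAM2 are GRAS-domain proteins that bind WUS and act with it. In the flower, AG and KNU end the activity of WUS, so that the floral meristem stops.

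Nuclei were barcodes with at least 1000 detected nuclear genes, which gave 4397 nuclei with 11083512 unique molecular identifiers (UMIs) at day 3 and 4545 nuclei with 10202530 UMIs at day 4. Their median depths were 1842 and 1805 UMIs, and 6 barcodes occurred in both libraries. Each day is 1 library, so no difference between the days has a replicate check and no test was run. Levels are UMIs of a gene scaled to 1000000 nuclear UMIs (CPM), and the intervals in parentheses are exact 95% intervals that cover counting error only. The number of PCR cycles (11 and 14 at day 3, 14 and 13 at day 4, for cDNA and for the final library), the sequencer and the number of dexamethasone applications differed between the libraries, so their part in any difference and that of the day cannot be told apart. The protocol text in the labels gives the fourth day for both libraries, and the days used here are those of the sample titles.

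WUS and CLV3, the gene pair at the core of the pathway, had the fewest UMIs of the 10 members in both libraries. WUS had 43 UMIs at day 3, or 3.88 CPM (2.81 to 5.23), and 29 UMIs at day 4, or 2.84 CPM (1.90 to 4.08). CLV3 had 22 UMIs at day 3, or 1.98 CPM (1.24 to 3.01), and 16 UMIs at day 4, or 1.57 CPM (0.896 to 2.55). For both genes the intervals of the 2 days overlapped. Of the 4397 nuclei at day 3, 25 held a UMI of WUS and 13 held a UMI of CLV3, and of the 4545 nuclei at day 4, 16 held WUS and 9 held CLV3.

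The few UMIs of both genes were concentrated in single nuclei. At day 3, 10 nuclei had at least 2 UMIs of WUS and together held 28 of its 43 UMIs, with up to 6 in 1 nucleus. At day 4, 9 nuclei had at least 2 and held 22 of the 29 UMIs. For CLV3, 3 nuclei held 12 of 22 UMIs at day 3, 1 of them with 7, and 4 nuclei held 11 of 16 at day 4.

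Of the receptors, the CLV1 family was represented by CLV1 itself and by its relatives BAM1 and BAM2. BAM1 had 1353 UMIs at day 3, or 122 CPM (116 to 129), and 1379 at day 4, or 135 CPM (128 to 142). BAM2 had 557 UMIs, or 50.3 CPM (46.2 to 54.6), and 550 UMIs, or 53.9 CPM (49.5 to 58.6). CLV1 had 241 UMIs, or 21.7 CPM (19.1 to 24.7), and 235 UMIs, or 23.0 CPM (20.18 to 26.2). For each of the 3 genes the intervals of both days overlapped.

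The other receptor components are CLV2, CRN and RPK2. CRN had 610 UMIs, or 55.0 CPM (50.8 to 59.6), at day 3 and 592 UMIs, or 58.0 CPM (53.4 to 62.9), at day 4. Its partner CLV2 had 133 UMIs, or 12.0 CPM (10.0 to 14.2), and 94 UMIs, or 9.21 CPM (7.45 to 11.3). RPK2 had 443 UMIs, or 40.0 CPM (36.3 to 43.9), and 518 UMIs, or 50.8 CPM (46.5 to 55.3), and it was the receptor gene whose intervals at the 2 days did not overlap. CRN overlaps the neighbouring genes AT5G13280 and AT5G13295 and BAM2 overlaps the non-coding gene AT3G49668 in the RefSeq annotation of TAIR10.1, and how the counting used strand is not given in the sources used here, so reads of these genes and of their neighbours could not be told apart.

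The partners of WUS were among the best-measured members. HAM1 had 920 UMIs at day 3, or 83.0 CPM (77.7 to 88.5), and 741 at day 4, or 72.6 CPM (67.5 to 78.1). HAM2 had 732 UMIs, or 66.0 CPM (61.3 to 71.0), and 526 UMIs, or 51.6 CPM (47.2 to 56.2). HAM2 was lower at day 4 with no overlap of intervals, and the intervals of HAM1 overlapped slightly.

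**Figure D1:**
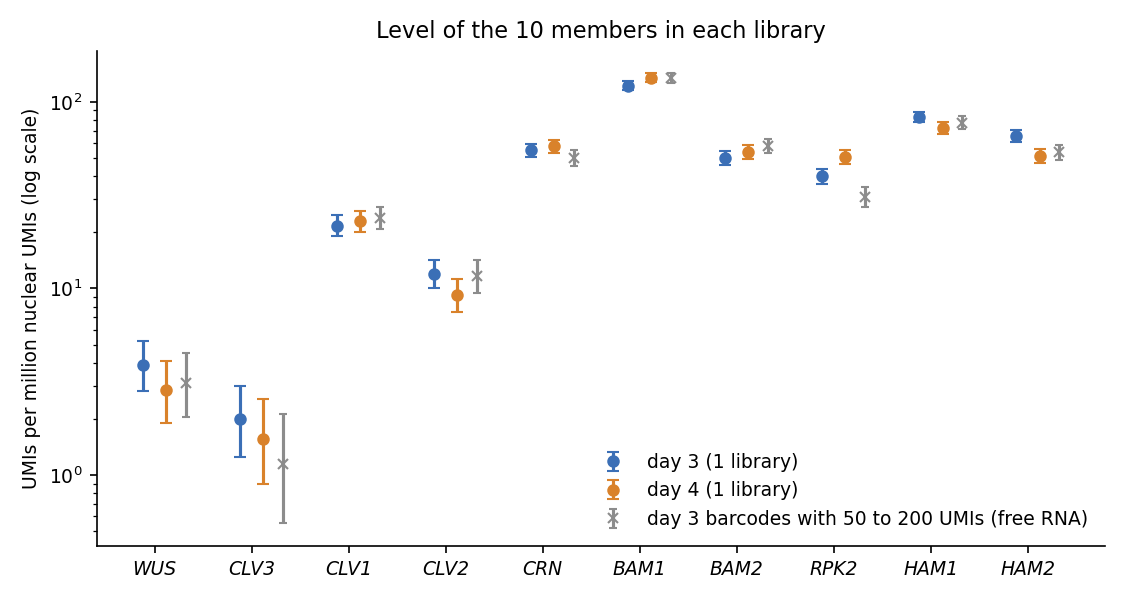
Level of the 10 members in CPM on a log axis, for the day 3 library (blue), the day 4 library (orange) and the day 3 barcodes with 50 to 200 UMIs that describe free RNA (grey crosses). Bars are exact 95% counting intervals of 1 library each. WUS and CLV3 lie below 4 CPM in both libraries, and BAM1 lies above 100 CPM.

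To compare levels between genes, the CPM was divided by the length of the longest annotated transcript. On this scale of CPM per kb, BAM1 (34.2 at day 3, 37.8 at day 4) and HAM1 (32 and 28) led, followed by HAM2 (27.2 and 21.3) and CRN (23.2 and 24.4). BAM2 (13.9 and 14.9), RPK2 (9.44 and 12.0) and CLV1 (6.13 and 6.49) came next, and CLV2 (4.64 and 3.56), WUS (3.11 and 2.28) and CLV3 (2.54 and 2.00) were lowest. Counting error did not separate BAM1 from HAM1 or CLV1 from CLV2 at day 3, nor HAM1 from CRN or CRN from HAM2 at day 4. CLV2 was not separated from WUS, nor WUS from CLV3, at either day. Libraries of this kind count transcript ends, which do not scale with length, so the order holds for this scale alone.

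The share of nuclei with a UMI was compared after each nucleus was thinned to 1000 UMIs. For BAM1 the thinned share of day 3 was 11.0% (10.1 to 12.0) and that of day 4 was 11.3% (10.4 to 12.3), against 22.8% and 22.9% unthinned. HAM2 had a lower thinned share at day 4, 5.08% (4.46 to 5.76), than at day 3, 6.57% (5.86 to 7.35), and the unthinned shares were 10.1% and 14.4%. RPK2 went the other way, from 3.84% (3.29 to 4.45) to 5.06% (4.44 to 5.74), with unthinned shares of 9.19% and 10.3%, and the thinned intervals barely overlapped. CLV1 was in 1.96% (1.57 to 2.41) and 2.07% (1.67 to 2.53) of thinned nuclei, against 4.62% and 4.07% unthinned.

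Free RNA in the droplets was described by the 54681 barcodes of the day 3 library with 50 to 200 nuclear UMIs, on average 159. The members' CPM there was close to that of the nuclei. Nuclei were lower than these barcodes for BAM2, with a ratio of 0.866 (0.766 to 0.979), and for BAM1, with 0.908 (0.839 to 0.983). They were higher for RPK2, with 1.29 (1.10 to 1.50), and for HAM2, with 1.23 (1.09 to 1.39). If every nucleus held as many free UMIs as such a barcode, they would make up 2.17 of the 43 UMIs of WUS and 0.804 of the 22 UMIs of CLV3 at day 3. The day 4 file holds called nuclei alone, so the same could not be computed there.

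With the day 4 level set against that of day 3, no member passed the 1.5-fold mark in either direction. The mark was set on CPM + 1 for genes with at least 200 UMIs over both libraries. It was passed by 4.36% of the 14740 such genes in the direction of day 4 (642 genes) and by 3.30% in the direction of day 3 (487 genes). Of the 10 members, 8 reached 200 UMIs, and among these 0 were at least 1.5-fold higher and 0 at least 1.5-fold lower at day 4. Their median log2 ratio was 0.08, and that of all 14740 genes was 0.08. Without the filter on UMIs the median was -0.06 over all 10 members and 0.07 over all genes. With shares this low, 8 genes would mostly give none past the mark, so the count says little about the members.

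The interval of the ratio lay on one side of 1 for RPK2, BAM1, HAM1 and HAM2. The ratio of CPM was 1.27 (1.12 to 1.45) for RPK2 and 0.781 (0.697 to 0.874) for HAM2, and it was 0.875 (0.793 to 0.965) for HAM1 and 1.11 (1.03 to 1.19) for BAM1. On the log2 scale the interval of BAM1 (0.038 to 0.256) held the median of all genes, 0.08. BAM1 was thus not set apart from the genes of the library as a whole. For CLV1 (1.06, 0.881 to 1.27), CRN (1.05, 0.940 to 1.18), BAM2 (1.07, 0.952 to 1.21) and CLV2 (0.768, 0.583 to 1.01) the interval held 1. On the log2 scale the interval of CLV2 (-0.778 to 0.011) nevertheless lay below the median of all genes, 0.08. The ratios of WUS (0.733, 0.441 to 1.20) and CLV3 (0.790, 0.388 to 1.57) rested on few UMIs, and their intervals held 1.

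**Figure D2:**
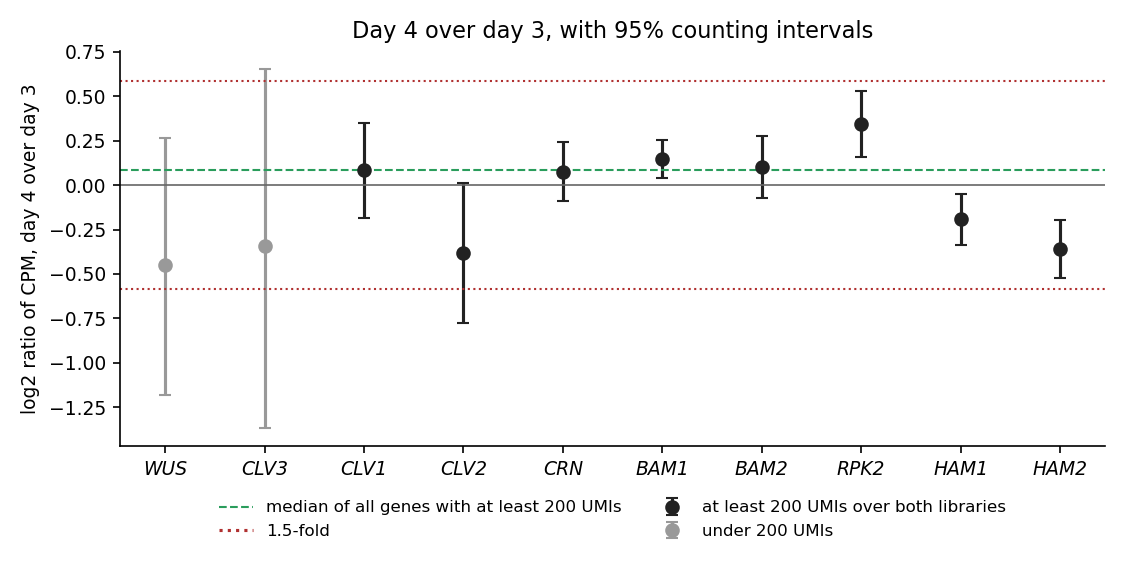
Day 4 over day 3 ratio of CPM of each member on the log2 scale, with exact 95% counting intervals and 1 library per day. Black points have at least 200 UMIs over both libraries, grey points fewer, the dashed green line is the median of all genes and the dotted red lines mark 1.5-fold. The intervals of BAM1 and RPK2 lie above 0, and those of HAM1 and HAM2 lie below 0. That of BAM1 holds the dashed green line.

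The same ratio was then taken within clusters that were formed from both libraries together, to see whether RPK2 and HAM2 differed in many kinds of nuclei or in a few. The clusters were formed without the members among the variable genes. A cluster with 335 nuclei of day 3 and 25 of day 4 was left out, which left 10. HAM2 was lower at day 4 in 9 of the 10 clusters, with a median log2 ratio of -0.39, and its interval lay below a ratio of 1 in 4. Of all 14740 genes, 9.02% were lower in at least 9 of these clusters. RPK2 was higher in 9 of 10, with a median of 0.26 and the interval above 1 in 3, and 11.9% of all genes were higher in at least 9.

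The other members were more even. HAM1 was lower at day 4 in 7 of 10 clusters, as were 26.5% of all genes in at least that many, with a median of -0.06. BAM1 was higher in 7 clusters and BAM2 in 8, shares that 35.4% and 22.3% of all genes reached. CLV1 and CRN were higher in 5 and lower in 5. CRN was higher in the procambium-like cluster, where it had 66.5 CPM at day 3 and 95.2 CPM at day 4. CLV1 was higher in the cortex-like cluster, with 20.7 CPM and 33.3 CPM.

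**Figure D3:**
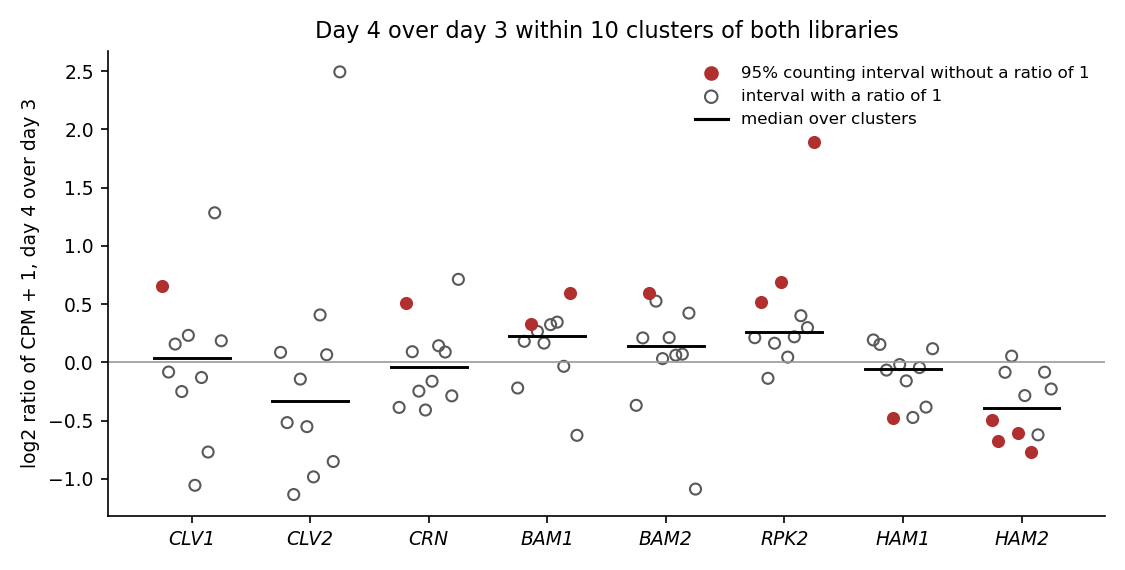
Day 4 over day 3 log2 ratio of CPM + 1 of 8 members within 10 clusters formed from both libraries, 1 point per cluster. Red points have a 95% counting interval of the CPM ratio that does not hold 1, and black bars are medians over clusters. The points of HAM2 lie below 0 in 9 clusters and those of RPK2 above 0 in 9.

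For levels by tissue, each library was clustered alone, with the members and the related genes named here taken out of the variable genes. This gave 11 clusters at day 3 and 12 at day 4, which were named after lists of markers. A name ending in -like says only that at least 3 markers of that list stood at least 2-fold above the other nuclei. Clusters of the same name were joined, and 3 clusters of each day had no name. At day 3 no cluster took the floral meristem name at this resolution, and at a finer resolution 345 nuclei did. The floral meristem-like nuclei of day 4, 353 in number, passed 5 of the 9 markers of that list, and the genes leading them were others, such as ABCB11, ABCB4 and REM22. The procambium-like cluster of day 4 was led also by xylem genes, among them ACL5 and CESA4.

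CLV1 was highest in phloem-like nuclei at both days, which were few but stood well apart. At day 3 it had 109 CPM (73.0 to 157) in 58 phloem-like nuclei, on 29 UMIs, and was 5.56-fold (3.64 to 8.23) above the other nuclei. At day 4 it had 126 CPM (80.2 to 190) in 59 phloem-like nuclei, on 23 UMIs, and was 5.98-fold (3.71 to 9.21) above the others. In the other named classes CLV1 lay between 14.3 and 30.9 CPM at day 3 and between 8.59 and 37.1 CPM at day 4. No interval of these classes reached that of the phloem-like nuclei. Phloem-like nuclei were also deeper than average, with medians of 3089 and 2889 UMIs, and passed 4 of 7 detected phloem markers at day 3 and 4 of 8 at day 4. No phloem marker was among their top 10 genes by fold, which AT2G39850 and PWD led at both days.

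The next named class for CLV1 at day 4 was the floral meristem-like one, with 37.1 CPM (24.0 to 54.7), or 1.68-fold (1.06 to 2.55) above the other nuclei. A cluster of 549 nuclei without a name, with CA2 and LOX2 among its leading genes, held about as much, 39.5 CPM (28.6 to 53.2), or 1.87-fold (1.31 to 2.62) above the others. With the finer clustering of day 3 the floral meristem-like nuclei had 48.3 CPM (33.1 to 68.2), or 2.41-fold (1.61 to 3.51) above the others. CLV1 was low in procambium-like nuclei, with 14.3 CPM (8.61 to 22.3) and 13.1 CPM (7.88 to 20.4).

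CRN and BAM1 were highest in procambium-like nuclei among the named classes. CRN had 84.3 CPM (69.4 to 101) there at day 3 and 109 CPM (93.1 to 128) at day 4, which was 1.65-fold (1.33 to 2.03) and 2.21-fold (1.83 to 2.66) above the other nuclei. With the finer clustering of day 3, which had a floral meristem-like class, CRN was 90.6 CPM (69.2 to 117) in that class, an interval that overlaps the one of procambium-like nuclei. It was lowest in epidermis-like nuclei at both days, with 29.2 CPM (17.0 to 46.7) and 34.9 CPM (27.1 to 44.2), the latter equal within counting error to the 34.9 CPM (25.9 to 46.1) of the cortex-like nuclei of day 4. BAM1 had 159 CPM (138 to 182) and 194 CPM (172 to 218) in procambium-like nuclei, or 1.36-fold (1.17 to 1.57) and 1.55-fold (1.35 to 1.77) above the others. BAM1 was found in every class, from 93.7 CPM (76.2 to 114) in S phase-like nuclei at day 3 and from 71.5 CPM (38.1 to 122) in phloem-like nuclei at day 4.

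BAM2 was 62.5 CPM (48.3 to 79.5) in S phase-like nuclei at day 3, or 1.28-fold (0.971 to 1.65) the others, an interval that held 1. At day 4 it was 75.3 CPM (63.6 to 88.5) in G2/M-like and 73.7 CPM (56.2 to 94.8) in S phase-like nuclei. Clusters without a name were higher. At day 3, 725 such nuclei held 66.7 CPM (56.9 to 77.7), or 1.46-fold (1.21 to 1.76). At day 4, 159 nuclei, with the S phase markers HTA6 and HTA13 among their leading genes, held 90.6 CPM (62.3 to 127). With both libraries clustered together the G2/M-like nuclei of day 4 held 48.9 CPM (35.5 to 65.6), below the 53.9 CPM of the whole library, and the S phase-like ones 72.3 CPM (54.3 to 94.3), so the level in G2/M-like nuclei depended on the clustering. The cortex-like nuclei of day 4 held 21.0 CPM (14.1 to 29.9), or 0.354 (0.236 to 0.511) of the level in the other nuclei. Procambium-like nuclei held 39.9 CPM (29.9 to 52.2) and 40.6 CPM (30.9 to 52.4). BAM1 and BAM2 are close relatives, and how reads shared by both were counted is not given in the sources used here.

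RPK2 ranged from 18.8 CPM (6.10 to 43.9) in phloem-like to 50.2 CPM (37.6 to 65.6) in S phase-like nuclei at day 3, and from 35.6 CPM (26.5 to 46.9) in cortex-like to 77.0 CPM (42.1 to 129) in phloem-like nuclei at day 4. Phloem-like nuclei were thus at the bottom at day 3 and at the top at day 4, on 5 and 14 UMIs. The ratio of S phase-like to other nuclei at day 3 was 1.29 (0.949 to 1.72), an interval that held 1. With the finer clustering of day 3, RPK2 was highest in floral meristem-like nuclei, at 58.9 CPM (41.9 to 80.5), or 1.52-fold (1.06 to 2.11) above the others. With both libraries clustered together these nuclei were again highest at day 3, at 57.7 CPM, or 1.49-fold (1.06 to 2.05). HAM1 was highest in floral meristem-like nuclei at day 4, with 99.3 CPM (77.0 to 126), or 1.4-fold (1.08 to 1.81) above the others, and with the finer clustering of day 3 it had 131 CPM (105 to 162) there, or 1.64-fold (1.3 to 2.05). With both libraries clustered together the ratio at day 4 was 1.24 (0.972 to 1.55), an interval that held 1. HAM2 had 69.7 CPM (51.2 to 92.6) in the floral meristem-like nuclei of day 4, or 1.39-fold (1.00 to 1.87). A day 4 cluster of 159 nuclei without a name held more, 82.3 CPM (55.6 to 118) on 30 UMIs. At day 3 HAM2 had 79.0 CPM in phloem-like nuclei (48.9 to 121) and in a cluster of 912 nuclei without a name (66.7 to 92.9). With the finer clustering of day 3 its highest named class was cortex-like, at 79.9 CPM (64.6 to 97.6).

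CLV2 was too rare for an order of classes. Its highest class was procambium-like at day 3, with 14.3 CPM (8.61 to 22.3), and phloem-like at day 4, with 27.5 CPM (8.93 to 64.2) on 5 UMIs. At neither day did the ratio to the other nuclei have an interval without 1.

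WUS was highest in floral meristem-like nuclei at day 4. There, 9 of its 29 UMIs lay in 5 of 353 nuclei, which gave 13.3 CPM (6.10 to 25.3), or 6.36-fold (2.55 to 14.6) above the other nuclei. Such intervals treat the UMIs of 1 nucleus as independent, so for WUS, whose UMIs are concentrated in few nuclei, they are too narrow. By nuclei, 1.42% (0.461 to 3.27) of the floral meristem-like class held it. The shares were 0.407% (0.0839 to 1.18) of G2/M-like and 0.338% (0.0697 to 0.984) of epidermis-like nuclei. In the cortex-like class 1 of 687 nuclei held it, or 0.146% (0.00369 to 0.808). The interval of the floral meristem-like share overlapped each of these. Median depths were 1740 UMIs in cortex-like and 1652 in floral meristem-like nuclei. With the finer clustering of day 3, 5 of 345 floral meristem-like nuclei held 7 of its 43 UMIs, or 10.6 CPM (4.25 to 21.8) and 3.06-fold (1.15 to 6.98) above the others. In the main clustering of day 3, G2/M-like nuclei held 15 UMIs, or 6.37 CPM (3.56 to 10.5), and 104 xylem-like nuclei held 4, or 11.5 CPM (3.12 to 29.3), and both intervals of the ratio to the other nuclei held 1. With both libraries clustered together, WUS at day 3 was highest in S phase-like nuclei, with 13.0 CPM (6.22 to 23.9) on 10 UMIs in 4 of 355 nuclei, and had 9.62 CPM on 7 UMIs in the floral meristem-like ones. The class with the highest level at day 3 thus changed with the clustering.

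CLV3 had no such class. At day 3, 13 of its 22 UMIs lay in 5 nuclei of a cluster of 725 nuclei without a name, which was led by genes that include the lipid transfer protein genes LTP6 and LTPG1, and this gave 5.25 CPM (2.80 to 8.98). None of its UMIs lay in procambium-like, xylem-like, phloem-like or epidermis-like nuclei at day 3, where the counts allow up to 2.78 CPM in the procambium-like and 6.34 CPM in the epidermis-like class. At day 4 the 16 UMIs were spread over clusters of several names, with at most 5, all in 1 procambium-like nucleus.

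**Figure D4:**
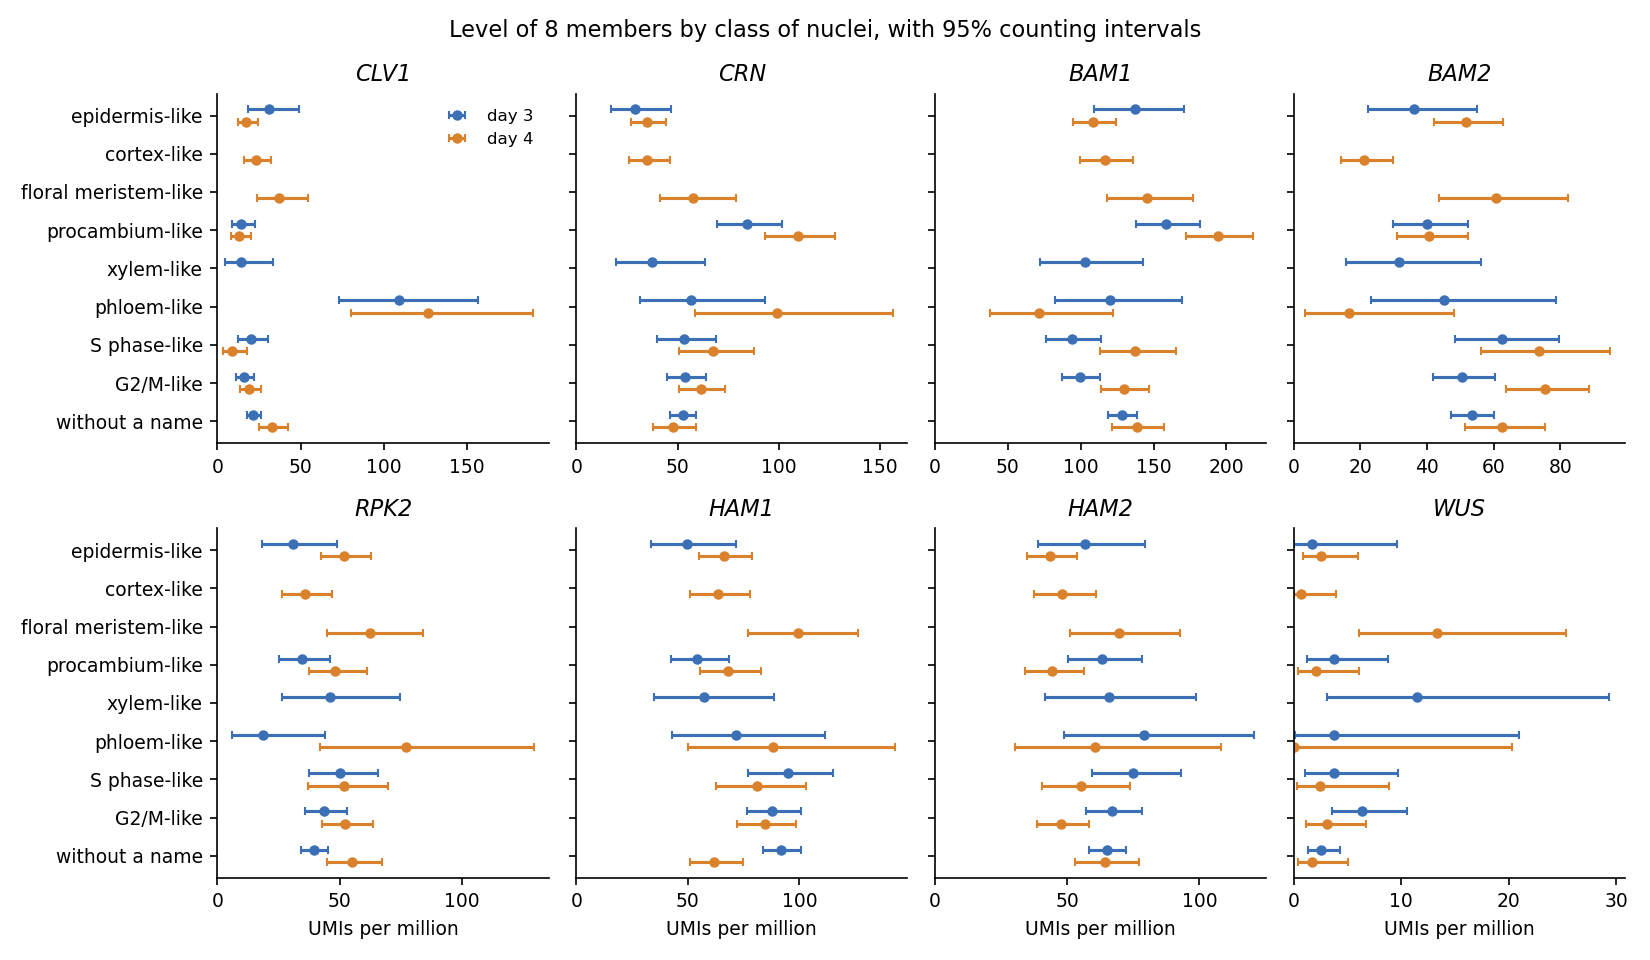
Level of 8 members in CPM by class of nuclei, at day 3 (blue) and day 4 (orange), with exact 95% counting intervals. Each axis starts at 0 and has its own scale, and a class with no point was not found at that day. CLV1 stands out in phloem-like nuclei, CRN and BAM1 are highest in procambium-like nuclei, and WUS is highest in floral meristem-like nuclei at day 4.

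The nuclei that held WUS were also examined for the other members. At day 3, 9 of the 25 nuclei with WUS held CLV1, or 36.0% (18.0 to 57.5), against 194 of the 4372 other nuclei, or 4.44% (3.85 to 5.09). At day 4, 9 of 16 held it, or 56.2% (29.9 to 80.2), against 176 of 4529, or 3.89% (3.34 to 4.49). In CPM, CLV1 was 6.11-fold (3.29 to 10.5) higher in WUS nuclei at day 3 and 12.8-fold (6.88 to 21.9) at day 4. The nuclei with WUS were somewhat deeper, with medians of 2252 and 2117.5 UMIs against 1841.5 and 1803. After thinning to 1000 UMIs, 4 nuclei held both genes at day 4, against 0.290 from the product of their shares, and 0 nuclei held both at day 3, against 0.274. This comparison was chosen after the data had been seen.

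The overlap of WUS with CLV1 was also found outside the phloem-like nuclei. Without that cluster, 8 of 24 nuclei with WUS held CLV1 at day 3 and 9 of 16 at day 4. Without the 8% deepest nuclei of each library, 4 of 18 nuclei, or 22.2% (6.41 to 47.6), held it at day 3 and 5 of 12, or 41.7% (15.2 to 72.3), at day 4. Of the nuclei with at least 2 UMIs of WUS, 0 of 10 held CLV1 at day 3, which allows a share of up to 30.8%, and 6 of 9 did at day 4.

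For no other receptor was the share in WUS nuclei above that in the other nuclei at both days with intervals apart. BAM1 was in 32% (14.9 to 53.5) and 18.8% (4.05 to 45.7) of WUS nuclei, against 22.8% and 23.0% of the others. For HAM1 the share of day 3 was 36.0% (18.0 to 57.5) against 16.4% of the others, and that of day 4 was 12.5% (1.55 to 38.3) against 13.4%. CRN was in 12.0% (2.55 to 31.2) and 25.0% (7.27 to 52.4), against 11.7% and 10.6%. CLV3 was in 2 WUS nuclei at each day, or 8.00% (0.984 to 26.0) and 12.5% (1.55 to 38.3), against 0.252% and 0.155% of the other nuclei. Each of these 4 nuclei also held CLV1, and each was among the 8% deepest of its library, with 10818 and 5841 UMIs at day 3 and 4028 and 11483 at day 4, and whether they hold 1 or more nuclei was not tested.

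**Figure D5:**
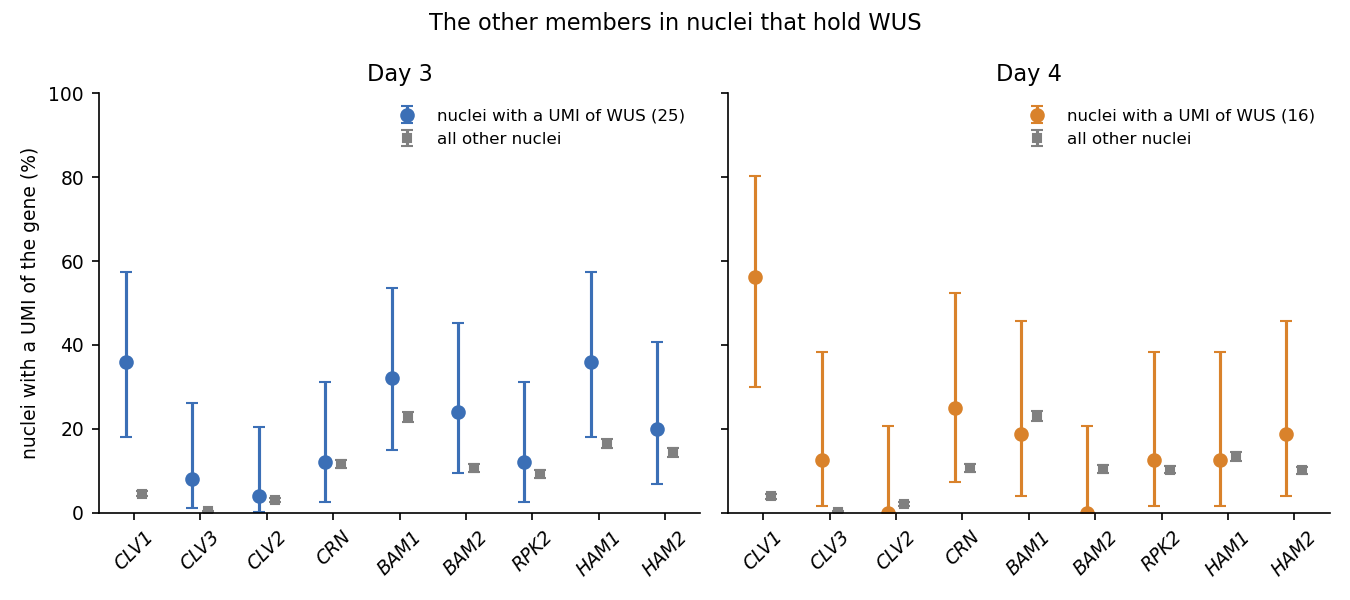
Share of nuclei with a UMI of each other member, in percent, among nuclei with a UMI of WUS (coloured, 25 at day 3 and 16 at day 4) and among all other nuclei (grey squares), with exact 95% binomial intervals. CLV1 is found in 36.0% and 56.2% of WUS nuclei and in under 5% of the others.

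Some other genes had shares in WUS nuclei far above those in the other nuclei. They are given as a description with no test, since they were picked for these shares, after CLV1 had been seen, among the 2665 genes found in at least 4 WUS nuclei at each day, a filter that favours genes high in these nuclei. Among them were AT3G59270, annotated as an FBD-like domain protein, and AT1G26680, annotated as a B3 family transcription factor. AT3G59270 was in 72.0% and 37.5% of WUS nuclei against 3.50% and 1.99% of the others, and AT1G26680 in 44.0% and 37.5% against 2.68% and 1.88%. SWEET1 was in 40.0% and 31.2% against 4.41% and 3.75%, and MIPS1 in 36.0% and 37.5% against 4.85% and 5.52%. UFO, an F-box protein that acts with LFY in flowers, was in 16.0% and 25.0% against 2.40% and 1.63%. This rests on 4 WUS nuclei at each day, the minimum of the filter. ULT1, a SAND-domain protein that limits the floral meristem, was in 36.0% and 31.2% against 10.1% and 5.12%. REM34, a B3 family gene of the meristem, was in 80.0% and 62.5% of WUS nuclei against 20.7% and 13.4%.

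The number of nuclei that held both members of a pair was divided by the product of their shares, in nuclei thinned to 1000 UMIs, and for most pairs the interval held 1. Of the 45 pairs, 2 had an interval above 1 and 1 an interval below 1 at day 3, and 4 had one above and 1 one below at day 4, and no pair did so at both days. Those above 1 at day 4 include WUS with CLV1, described above, and WUS with CLV3, which rests on 1 nucleus. CLV2 and CRN, whose proteins form a complex, were together in 8 nuclei at day 3, or 2.73 times (1.18 to 5.37) that product. At day 4 they were together in 2 nuclei, or 1.00 times (0.121 to 3.62). CRN and HAM2 were together in 25 nuclei at day 3, or 1.59 times (1.03 to 2.35). CRN and BAM1 were together in 41 nuclei at day 4, or 1.44 times (1.03 to 1.95), and HAM1 and HAM2 in 27 nuclei at day 4, or 1.74 times (1.14 to 2.53). Below 1 were BAM2 and RPK2 at day 3, with 2 nuclei or 0.264 times (0.032 to 0.954), and CLV1 and CRN at day 4, with 0 nuclei against 5.21 from the product. In unthinned nuclei BAM2 and RPK2 at day 3 gave 1.42 (1.08 to 1.82), an interval above 1. CLV1 and CRN at day 4 were there together in 18 nuclei against 19.7, or 0.914 times (0.541 to 1.44). Without thinning, deep nuclei hold more of both genes of a pair, which raises the ratio. BAM1 and BAM2 at day 3, for example, gave 1.50 (1.28 to 1.76) unthinned and 0.922 (0.563 to 1.42) thinned. The unthinned values therefore cannot decide whether the thinned ratios below 1 hold. CRN was found less often than the product together with the epidermal regulator ATML1 at both days, 0.638 times (0.395 to 0.975) and 0.565 times (0.354 to 0.856). In unthinned nuclei, with the same limit, day 3 gave 1.16 (0.987 to 1.36) and day 4 gave 0.841 (0.683 to 1.02), and both intervals held 1.

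The genes whose levels were most like those of a member were sought across all 23 clusters of both libraries, by Pearson correlation of log2(CPM + 10). The clusters of 1 library share its depth and preparation, so these values describe the clusters and carry no test. The genes most like CLV1 were ZFN3 (r = 0.87), AT2G26695 (0.87) and WRKY20 (0.86). Those most like CRN were TMO6 (0.85), SMXL5 (0.84) and AT1G29820 (0.83), the first pair being procambium markers. BAM1 was most like HHP3 (0.82), BAM2 was most like APC8 (0.82), a subunit of the anaphase-promoting complex, and RPK2 was most like SAE2 (0.87). HAM1 was most like AT4G35070 (0.82), with the meristem regulator PAN the third (0.78), HAM2 was most like AT5G14440 (0.73), and CLV2 was most like CEST (0.69).

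Over the same 23 clusters the highest correlation between members was that of RPK2 and HAM1 (r = 0.43), followed by CLV1 and HAM2 (0.40) and by CLV2 and CRN (0.38). BAM1 and BAM2 had r = 0.13 and HAM1 and HAM2 had 0.18. The lowest were those of CLV1 with BAM2 (-0.34) and with BAM1 (-0.31), and the latter was 0.03 over the clusters of day 3 and -0.55 over those of day 4. Of the 28 pairs of members with at least 200 UMIs, 12 had opposite signs at the 2 days, among them CLV1 and CLV2 (-0.59 and 0.77), CLV1 and RPK2 (-0.47 and 0.66) and BAM1 and BAM2 (-0.29 and 0.31). In the phloem-like clusters, where CLV1 was highest, CLV2 had 1 UMI at day 3 and 5 at day 4, and RPK2 had 5 and 14. How far such small counts set these signs was not tested.

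Of 9 CLE genes, which encode relatives of the CLV3 peptide, 6 reached 200 UMIs, and 0 of them were 1.5-fold higher and 0 lower at day 4, with a median log2 ratio of 0.02. Of all 14740 genes with that many UMIs, 4.36% were higher and 3.30% lower, with a median of 0.08. This list and those that follow were chosen with earlier results of these data known, and their counts were not tested. CLE41 and CLE44, which encode the peptide perceived by PXY, were highest in phloem-like nuclei at both days, CLE41 with 113 CPM and 209 CPM there against 48.4 CPM and 52.6 CPM in the whole libraries. CLE44 had 162 CPM and 154 CPM there. Most of their UMIs lay in other nuclei, since the phloem-like ones held 30 of 536 UMIs of CLE41 and 43 of 700 of CLE44 at day 3. CLE16 and CLE17 were highest in epidermis-like nuclei at both days, CLE17 with 136 CPM and 96.4 CPM, and CLE25 was highest in procambium-like nuclei, with 88.8 CPM and 66.1 CPM. CLE26 was highest in phloem-like nuclei at both days, and for CLE42 and CLE45 the class with the highest level differed between the days. CLE40, a relative of CLV3, had 0 UMIs at day 3 and 3 at day 4.

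Of 13 co-receptors and downstream signalling genes, all reached 200 UMIs, with a median log2 ratio of 0.18 against 0.08 for all genes. At day 4, 1 was at least 1.5-fold higher (4.36% of all genes) and 0 lower (3.30%). The gene past the mark was BAM3, the third BAM receptor, known for its role in the phloem of the root, with 88.5 CPM (981 UMIs) at day 3 and 152 CPM (1553 UMIs) at day 4, a log2 ratio of 0.78. BAM3 was highest in procambium-like nuclei, with 310 CPM and 419 CPM. The CIK co-receptors CIK1 and CIK3 were also highest there, at 301 CPM and 343 CPM for CIK1 and 319 CPM and 397 CPM for CIK3. CIK2 was highest in phloem-like nuclei, with 323 CPM and 528 CPM, as CLV1 was.

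Of 11 HAM and WOX relatives, 7 reached 200 UMIs, with a median log2 ratio of -0.30 against 0.08 for all genes. At day 4, 0 were at least 1.5-fold higher (4.36% of all genes) and 2 at least 1.5-fold lower (3.30%). These were HAM3, with 25.8 CPM and 16.2 CPM (log2 ratio -0.64), and WOX12, with 14.1 CPM and 8.23 CPM (-0.71). HAM4 was highest in phloem-like nuclei at both days, with 79.0 CPM on 21 UMIs and 71.5 CPM on 13 UMIs. WOX4, a homeobox gene of the cambium, had 254 CPM and 181 CPM in procambium-like nuclei, and WOX5, the relative of WUS in the root, had 25 and 39 UMIs in all.

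Of 16 regulators and targets of WUS, 9 reached 200 UMIs, with a median log2 ratio of -0.08 against 0.08 for all genes. At day 4, 0 were at least 1.5-fold higher (4.36% of all genes) and 3 at least 1.5-fold lower (3.30%). The 3 were ULT1, with 55.7 CPM and 28 CPM (-0.96), AG, with 34 CPM and 19.4 CPM (-0.78), and LFY, with 101 CPM and 63.9 CPM (-0.65). ULT1 was highest in floral meristem-like nuclei at day 4, with 81.5 CPM, as were AG and LFY, which are among the markers that gave this class its name. KNU, the repressor of WUS, had 6 UMIs at day 3 and 0 at day 4, and HEC1 had 3 and 7, too few for a comparison. ARR15, a cytokinin response gene and below the 200 UMIs, had 5.77 CPM on 64 UMIs and 13.0 CPM on 133 UMIs.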

How the data were processed

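The authors deposited raw UMI counts per gene and barcode, made with Cell Ranger 3.1.0 and the Araport11 annotation; the genome build and any correction for free RNA or doublets are not given in the sources used here, so no coordinates or sequences are shown. The day 3 file held 652188 barcodes with a UMI and the day 4 file 7716 called nuclei. Per the labels and titles, each day is 1 library.

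Barcodes with at least 1000 nuclear genes were kept, a minimum that the study's methods state, and organelle genes were left out. This left 4397 and 4545 nuclei, fewer than the study gives at both days and by far more at day 4, and the cause was not tested. UMIs were summed and scaled to CPM with numpy 2.4.6, pandas 2.3.3 and scipy 1.17.1. Exact Poisson intervals were used for sums, Clopper-Pearson intervals for shares, and exact conditional binomial intervals for ratios, all at 95%. Differences of day 4 over day 3 are log2 ratios of CPM + 1, which understate the change of low genes; ratios with intervals are of CPM. Pairs and shares used nuclei thinned to 1000 UMIs. No doublet caller was used. The calculations were tested on simulated data.

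Clustering after the study's methods used R 4.3.3, Seurat 5.3.0, sctransform 0.4.2 and uwot 0.2.3, with 3000 variable genes, 9 components, 50 neighbours, a minimum distance of 0.01 and a Louvain resolution of 0.04. Clusters were named by marker lists. A marker counted when its level was 2-fold or more that of the remaining nuclei (pseudocount 10 CPM), and the list with the largest share of counted markers gave the name where at least 3 counted. The name was dropped where another class led the top 10 genes, or where none of the list's own markers was among them and fewer markers counted than did not or the depth was low. This rule and the free RNA window of 50 to 200 UMIs were set after the data had been seen. Scaling factors came from edgeR 4.0.16. The alternatives were other minimums of genes, pseudocounts, UMI filters, scalings and clusterings, and leaving out the 8% deepest nuclei.

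The members and lists were chosen with earlier results of these data known. Named genes are the members, the lists, the marker genes and, per member, the genes most alike over clusters; the genes of WUS nuclei, and those that lead a cluster, were named after their values had been seen. Symbols and transcript lengths came from RefSeq (TAIR10.1), which had an entry for 36632 identifiers.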

Additional observations from a re-analysis of the deposited data

How the results depend on the processing

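No member passed 1.5-fold under any of the 8 alternatives tried for the day comparison (minimums of 500 and 1500 genes, a pseudocount of 10 CPM, TMM and median-of-ratios scaling, filters of 50 UMIs and of none, and without the 8% deepest nuclei), and the members' median log2 ratio lay between -0.06 and 0.10. TMM scaling moved the median of all genes from 0.08 to -0.0036. Of nuclei with at least 2 UMIs of WUS, 0% held CLV1 at day 3, against 36.0% of all nuclei with WUS and 60.0% of those with 1 UMI, and at day 4 the share was 66.7% against 56.2%. Shares of nuclei depend on thinning, and 18 of 20 shares left their intervals without it. The class at the top was the same under both other clusterings for CLV1 at both days, for BAM1 at both days and for CRN at day 4. At day 3 CRN, RPK2 and HAM1 were highest in floral meristem-like nuclei under both. Depth limits WUS and CLV3 most, with 72 and 38 UMIs over both libraries. No paired analysis was possible because each day is 1 library.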
